A study of Mus musculus with 6 samples.

Results

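Splicing regulators of the SR protein (Srsf), hnRNP (Hnrnp), muscleblind-like (Mbnl), CELF (Celf) and RBFOX (Rbfox) families were examined in muscle stem cells (MuSCs) from injured mouse muscle. Members were taken by gene symbol alone, as every gene named Srsf or Celf with a number, Hnrnp with letters or digits, Mbnl1 to Mbnl3 or Rbfox1 to Rbfox3. The rule found 43 members among the 49671 genes of the table, of which 11 were Srsf, 20 Hnrnp, 3 Mbnl, 6 Celf and 3 Rbfox genes. The rule itself used no measured value, but the members were chosen with earlier results of these data known. A total of 38 members had enough counts to be tested, and the other 5 (Srsf12, Celf3, Celf5, Celf6 and Rbfox3) are given by their counts only.

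The study asked whether resolvin D1 (RvD1), a lipid mediator made from an omega-3 fatty acid that promotes the resolution of inflammation, alters the transcriptome of MuSCs in regenerating muscle. Female C57BL/6 mice aged 4 to 6 months received 50 μL of 1.2% BaCl2, a salt that kills myofibers, into each tibialis anterior (TA) muscle. One group of 3 mice was given 100 ng of RvD1 by intraperitoneal injection every day, starting at about the time of injury, and the other group of 3 mice received the vehicle, saline with 0.1% ethanol, which the RvD1 doses also contained. On day 3 the 2 TA muscles of each mouse were pooled and MuSCs were sorted on CXCR4 together with β1-integrin after cells bearing CD45, CD11b, Sca-1 or Ter119 had been gated out (the sample labels also list CD31), giving 1 RNA-Seq library per mouse. Both groups were therefore injured, and neither genotype nor muscle differed between them. The cells are defined by this sort alone.

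The libraries held 16148026 to 28149176 expected counts. Transcripts of the MuSC markers Myod1 and Pax7 were present in every library, at 239 to 470 TPM and 4.03 to 8.5 TPM. TPM is the abundance of a transcript relative to all transcripts, corrected for its length. Those of the sort markers were at 444 to 524 TPM for Itgb1 (β1-integrin) and 11.7 to 29.8 TPM for Cxcr4. Transcripts of the excluded markers were low for Ptprc (CD45), at 0.08 to 1.13 TPM, and Itgam (CD11b), at 0.17 to 0.80 TPM, whereas Ly6a (Sca-1) was present at 17.3 to 39.7 TPM. Pecam1 (CD31) was at 0.25 to 3.61 TPM. RvD1 replicate 1 stood apart, with the highest sum of 12 fibroblast markers (1753 TPM against 754 to 1098 TPM in the other 5 libraries) and the lowest sum of 10 proliferation markers (1645 TPM against 2080 to 2339 TPM). Results on the splicing regulators are therefore also given without this library where that matters.

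Pre-mRNA splicing is directed by RNA-binding proteins that decide which exons the spliceosome joins. SR proteins carry arginine-serine-rich domains, bind exonic enhancers and usually promote exon inclusion, while hnRNP proteins coat nascent transcripts and often act in the opposite sense. MBNL, CELF and RBFOX proteins set the splicing programs of skeletal muscle and heart, and MBNL and CELF proteins act against each other on many exons in the developing muscle and in myotonic dystrophy. Many of the SR genes also carry alternative exons that send their own transcripts to nonsense-mediated decay (NMD), by which the proteins limit their own levels.

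The splicing regulators were abundant in these cells. Together the 43 members made up 1.46% to 1.6% of all TPM in each library. The Hnrnp genes accounted for most of this, at 11230 ± 354 TPM (mean ± SD, n = 3) with RvD1 and 10740 ± 323 TPM with vehicle, followed by the Srsf genes at 3552 ± 34.3 TPM and 3311 ± 72.1 TPM. The muscle-linked families were far less abundant, with the Mbnl genes at 371 ± 66.2 TPM and 333 ± 24.0 TPM, the Celf genes at 325 ± 5.80 TPM and 288 ± 8.64 TPM, and the Rbfox genes at 85.8 ± 4.73 TPM and 73.6 ± 3.77 TPM, each given for RvD1 and then vehicle. Bulk libraries cannot tell a lower level per cell from fewer cells that express a gene.

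Levels within each family spanned a wide range. TPM corrects for transcript length and was therefore used to rank genes against each other. Hnrnpk, a KH-domain protein of the nucleus and cytoplasm, was the most abundant member at a mean over all 6 libraries of 2528 TPM, ahead of Hnrnpa2b1 (1767 TPM) and Hnrnpf (992 TPM). Srsf2 (SC35), a component of nuclear speckles, was the most abundant SR gene at 879 TPM. Hnrnpa1 (861 TPM) and Hnrnpu (840 TPM), the scaffold attachment factor, followed, and the libraries of these 3 neighbours in the ranking overlapped. In the muscle-linked families Mbnl2 (175 TPM), Celf2 (174 TPM) and Mbnl1 (167 TPM) lay close together, Celf1 stood at 124 TPM and Rbfox2 at 77.3 TPM. Mbnl3 (10.1 TPM), Celf4 (7.74 TPM) and Rbfox1 (2.40 TPM) were the low members of their families.

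**Figure D1:**
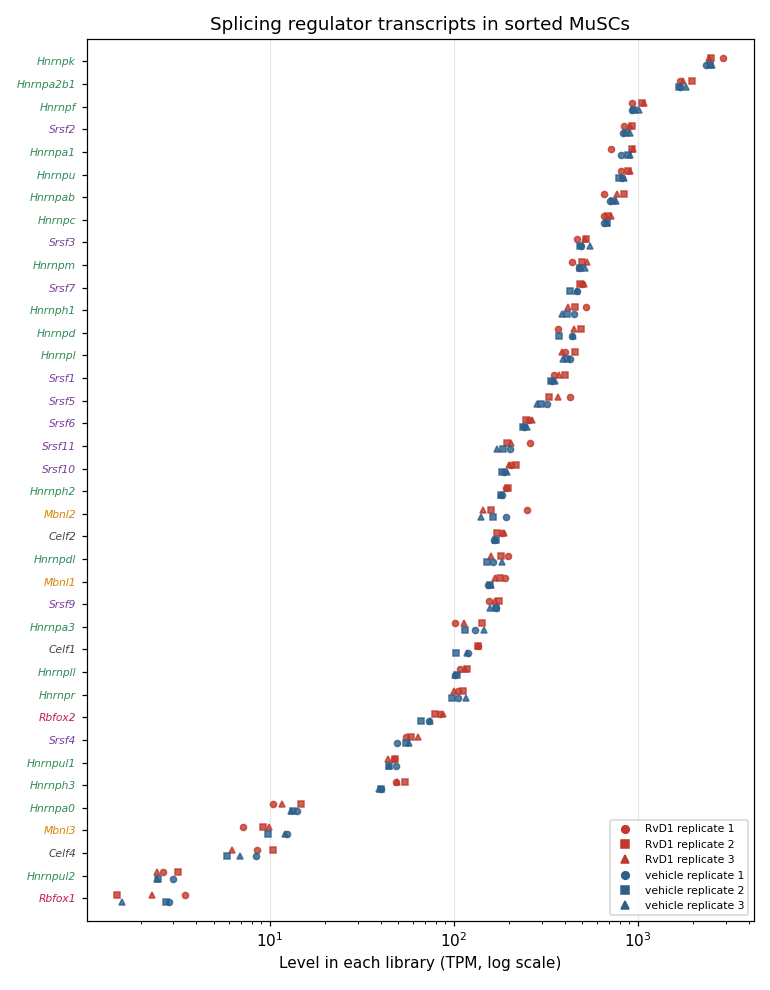
TPM on a log scale (horizontal axis) of the 38 members with a mean of at least 1 TPM (rows, coloured by family), with 1 symbol per library in red for RvD1 and blue for vehicle. Levels ran from 2.40 TPM for Rbfox1 to 2528 TPM for Hnrnpk, and for most members the 2 groups of libraries overlapped.

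The 5 members that were not tested were close to silent. Rbfox3, the neuronal member known as NeuN, held 1 count in RvD1 replicate 2 and 0 counts in the other 5 libraries, where a count of 0 allows a level of up to 0.140 to 0.186 CPM (counts scaled to a common library size, here 3 counts of the library total). Celf6 held 2 counts in RvD1 replicate 1 and 2 in vehicle replicate 3, and 0 elsewhere. Celf5 did not exceed 2 counts and Celf3 did not exceed 7 counts in any library. Srsf12 ranged from 5 to 22 counts, with the highest value in RvD1 replicate 1. These limits cover counting error only.

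No member differed between RvD1 and vehicle after adjustment for multiple testing. The comparison used edgeR's quasi-likelihood test on all 14494 genes that passed the count filter, with Benjamini-Hochberg adjusted p-values. No member of 38 was called at an adjusted p of 0.05 (percent of all genes called, 0), and the smallest adjusted p among the members was 0.971, which was also the smallest over all genes. By unadjusted p, 1 member fell under 0.05, which is 2.63% of the members against 3.47% of all genes (503 genes, of which those higher with RvD1 were 1.83% and those lower 1.64% of all genes), and DESeq2 likewise called 0 genes and had 474 genes and 1 member under that unadjusted level. A total of 16 members (42.1%, against 53.5% of all genes) were nominally above and 22 below vehicle, with a median log2 fold change of -0.019 against 0.0145 over all genes. The log2 fold changes ran from -0.22 for Mbnl3 to 0.25 for Srsf5.

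The data bounded the possible changes of these genes more tightly than those of the transcriptome as a whole. The 95% interval of the log2 fold change lay within -1 and 1, a change of up to 2-fold, for all 38 tested members, against 76.3% of all genes. It lay within -0.5 and 0.5 for 33 of the 38 (86.8%), against 48.1% of all genes. The median biological coefficient of variation of the members was 0.105 against 0.161 over all genes. The members were not matched to other genes by level of expression for this comparison. The 5 members with wider intervals were Hnrnpa0, Mbnl2, Mbnl3, Celf4 and Rbfox1, and the widest interval was that of Rbfox1, from -0.72 to 0.81.

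**Figure D2:**
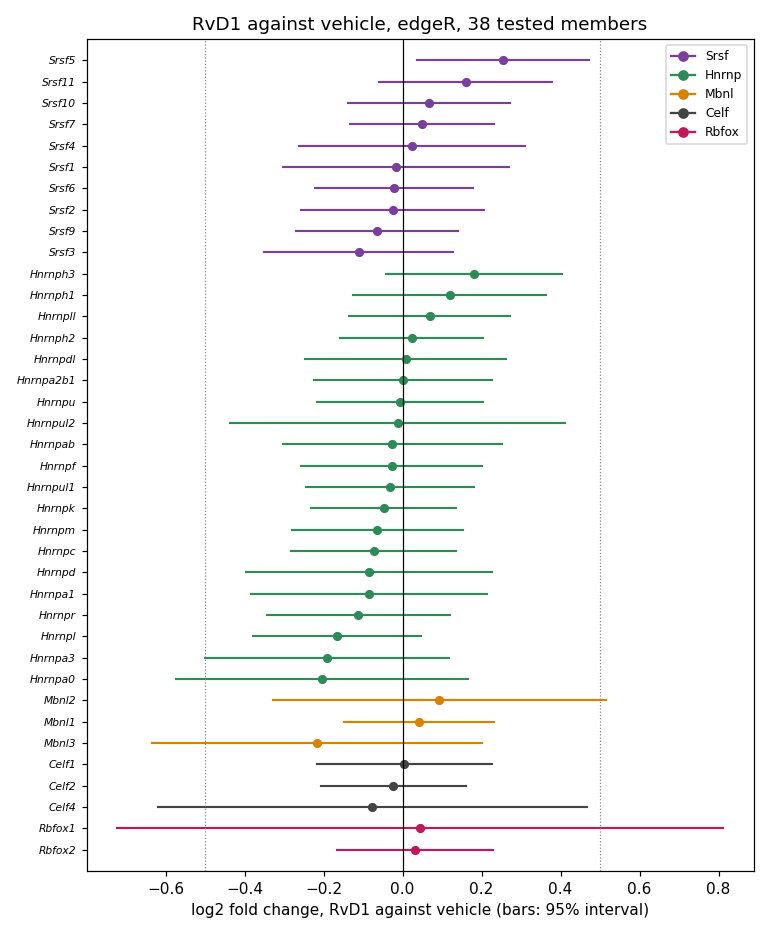
log2 fold change of RvD1 against vehicle from edgeR (horizontal axis, points) with its 95% interval (bars) for each of the 38 tested members (rows), coloured by family, with dotted lines at -0.5 and 0.5. The interval of Srsf5 (0.04 to 0.47) is the one that leaves out 0, and its adjusted p was 0.971.

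Among the SR genes, 5 of 10 tested were nominally above and 5 below vehicle, with a median log2 fold change of 0.0034. Srsf5 (SRp40), an SR protein whose levels respond to hormones and growth signals in other cells, was the member with the smallest p. Its normalised level was 385, 316 and 346 CPM in RvD1 replicates 1 to 3 and 303, 289 and 285 CPM in vehicle replicates 1 to 3. All 3 RvD1 libraries lay above all 3 vehicle libraries, and the highest value was that of RvD1 replicate 1. The log2 fold change was 0.25 ± 0.096 (SE, 95% interval 0.04 to 0.47), with an edgeR p of 0.027 and an adjusted p of 0.971. Leaving out each library in turn gave 0.18 to 0.32, and the unadjusted p was no longer under 0.05 without vehicle replicate 2 or without vehicle replicate 3. Srsf11 showed 292, 251 and 242 CPM with RvD1 against 242, 233 and 228 CPM with vehicle, with RvD1 replicate 3 lying just below the highest vehicle library (log2 fold change 0.16 ± 0.096 SE, edgeR adjusted p = 0.971).

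In CPM the best-studied SR proteins differed by less than the spread between mice. Srsf1 (SF2/ASF), the founding member of the family, was at 536, 727 and 668 CPM with RvD1 and 604, 630 and 719 CPM with vehicle. Srsf2 was at 577, 697 and 653 CPM against 605, 650 and 706 CPM. Srsf3, which also acts in mRNA export, was at 684, 825 and 806 CPM against 778, 809 and 913 CPM. In all 3 genes RvD1 replicate 1 was the lowest of the 6 libraries and the groups overlapped. Srsf10, a splicing repressor in mitosis and heat shock, was at 298, 337 and 304 CPM with RvD1 and 284, 297 and 316 CPM with vehicle, again with overlap. Its log2 fold change of 0.07 ± 0.090 (SE) had an edgeR adjusted p of 0.971, and Srsf4, Srsf6, Srsf7 and Srsf9 lay between -0.07 (Srsf9) and 0.05 (Srsf7).

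Among the hnRNP genes, 6 were nominally above and 14 below vehicle, with a median log2 fold change of -0.03 and a range from -0.20 to 0.18. Hnrnph3, a relative of the G-run binding proteins hnRNP H and F, was the other member besides Srsf5 whose groups did not overlap. It was at 42.7, 47.5 and 44.2 CPM with RvD1 and 38.4, 40.2 and 39.97 CPM with vehicle, so that each RvD1 library exceeded every vehicle library. The log2 fold change was 0.18 ± 0.098 (SE, 95% interval -0.04 to 0.40, edgeR adjusted p = 0.971). Groups that did not overlap were thus seen for 2 of 38 members (5.26%) against 9.62% of all genes. Both were above vehicle, where 4.8% of all genes had every RvD1 library above and 4.83% every RvD1 library below.

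Hnrnpa0, Hnrnpa3 and Hnrnpl had the smallest p-values among members below vehicle. Hnrnpl, which binds CA-rich elements, was at 353, 425 and 375 CPM with RvD1 and 428, 441 and 424 CPM with vehicle, where RvD1 replicate 2 just exceeded the lowest vehicle library (log2 fold change -0.17 ± 0.093 SE, edgeR adjusted p = 0.971). Hnrnpa3 was at 126, 172 and 133 CPM with RvD1 and 161, 148 and 184 CPM with vehicle, and the groups overlapped through RvD1 replicate 2 (log2 fold change -0.19, or -0.03 once the counts of its pseudogene copies were added). RvD1 replicate 2 was the highest of all libraries for Hnrnpa0, at 16.03, 24.1 and 18.3 CPM with RvD1 against 22.8, 22.5 and 21.99 CPM with vehicle. Without RvD1 replicate 2, these 3 genes had unadjusted p-values under 0.05 together with Srsf5, in a fit where 6.83% of all genes were under that level against 3.47% with all libraries, and the smallest adjusted p of any member was 0.725.

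The most abundant hnRNP genes overlapped between the groups. Hnrnpk was at 2216, 2372 and 2254 CPM with RvD1 and 2262, 2405 and 2407 CPM with vehicle. Hnrnpa2b1, an RNA-binding protein of splicing and transport, was at 1402, 1697 and 1446 CPM against 1445, 1495 and 1600 CPM. Hnrnpa1, which counteracts SR proteins at splice site choice, was at 680, 933 and 908 CPM against 806, 921 and 945 CPM. The 95% intervals of their log2 fold changes ran from -0.23 to 0.14, from -0.22 to 0.23 and from -0.38 to 0.22 respectively. Hnrnpu was at 1342, 1608 and 1543 CPM against 1501, 1482 and 1527 CPM, with a log2 fold change of -0.0054 that became 0.07 without RvD1 replicate 1.

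The promoters of Srsf5 and Hnrnph3 are printed because these were the members whose libraries separated by group in CPM. The sequences are the 250 bases before each RefSeq start on GRCm38.p6, read 5′ to 3′ on the strand of the gene, with every CG pair in capitals. Srsf5 lies at chr12:80945249-80945498 on the plus strand and Hnrnph3 at chr10:63023850-63024099 on the minus strand. In GENCODE M21 the Hnrnph3 gene begins further upstream, at chr10:63024217, so its stretch lies inside the gene in that annotation.
Srsf5: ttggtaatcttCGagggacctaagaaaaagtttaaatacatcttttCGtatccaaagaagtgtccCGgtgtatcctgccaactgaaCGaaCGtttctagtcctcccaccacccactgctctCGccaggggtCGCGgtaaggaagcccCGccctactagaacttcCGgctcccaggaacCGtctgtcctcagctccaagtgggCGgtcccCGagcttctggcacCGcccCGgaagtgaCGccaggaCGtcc
Hnrnph3: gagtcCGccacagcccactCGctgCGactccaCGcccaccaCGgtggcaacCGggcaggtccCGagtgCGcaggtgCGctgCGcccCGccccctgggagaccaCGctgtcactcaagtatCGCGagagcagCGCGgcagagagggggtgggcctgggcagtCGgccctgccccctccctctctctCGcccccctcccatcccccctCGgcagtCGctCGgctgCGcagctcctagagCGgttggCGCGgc
The Srsf5 stretch held 17 CG pairs and the Hnrnph3 stretch 25, and both are of the CG-rich kind often found at housekeeping genes. Of the 39 members with a promoter entry, 37 (94.9%) held at least 10 CG pairs, against 40.2% of 27025 genes with an entry, and the medians were 24 and 6 pairs. The motif CCGGAA, the core bound by ETS factors, was searched on both strands and was found in 13 of the 39 (33.3%) against 13.6% of all, and it is in the Srsf5 stretch and not in that of Hnrnph3. The motif CCAAT was found on either strand in 21 of the 39 (53.8%) against 37.5% of all, and in neither of the printed stretches. These matches describe the letters only. CCGGAA itself holds a CG pair, and the compared genes were neither matched for CG content nor limited to expressed genes. For genes with several promoter entries, the highest CG count and a match in any entry were taken.

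The Mbnl genes, which repress fetal exons in mature muscle, did not share a direction. Mbnl1 was at 432, 467 and 429 CPM with RvD1 and 412, 431 and 447 CPM with vehicle (log2 fold change 0.04 ± 0.084 SE, 95% interval -0.15 to 0.23). Mbnl2 was at 381, 262 and 227 CPM with RvD1 and 306, 275 and 235 CPM with vehicle, so the highest and the lowest library were both RvD1 libraries. Its log2 fold change of 0.09 ± 0.186 (SE) turned to -0.15 without RvD1 replicate 1, the library with the highest fibroblast marker sum, and the part of those markers in this value was not tested. Mbnl3, which is highest in proliferating myoblasts and falls with differentiation, was at 10, 14.3 and 13.9 CPM against 14.8, 13.0 and 16.6 CPM. The groups overlapped for Mbnl3, with a log2 fold change of -0.22 ± 0.184 (SE, 95% interval -0.63 to 0.20) and an edgeR adjusted p of 0.971.

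In CPM the CELF and RBFOX genes were also within the spread between mice, whereas Celf1, Celf2 and Rbfox2 separated by group in TPM, as given below. Celf1 (CUGBP1), which opposes MBNL proteins and promotes decay of GU-rich mRNAs, was at 311, 375 and 368 CPM with RvD1 and 344, 340 and 366 CPM with vehicle. Celf2 was at 286, 293 and 304 CPM against 287, 309 and 302 CPM. For both genes the groups overlapped, and the 95% intervals ran from -0.22 to 0.23 for Celf1 and from -0.21 to 0.16 for Celf2. Celf4, best known from neurons, was at 7.20, 12.02 and 7.32 CPM against 10.2, 8.05 and 9.83 CPM, with overlap and a wide interval of -0.62 to 0.47. Rbfox2, the RBFOX protein of myoblasts, was at 107, 108 and 114 CPM with RvD1 and 110, 101 and 111 CPM with vehicle (log2 fold change 0.03 ± 0.087 SE). Rbfox1, which is induced in differentiated muscle, was low but above the floor of 3 counts, at 1.95, 1.43 and 2.11 CPM against 1.98, 2.07 and 1.25 CPM, from 23 to 43 counts per library. Summed TPM of 8 Schwann and neural markers, a list that includes Rbfox3, was 151 to 209 with RvD1 and 142 to 150 with vehicle. The sums did not overlap, and all 8 markers had a higher mean with RvD1. The part of such cells in the levels of Celf4 and Rbfox1 was not tested.

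The median of the members varied more between mice of the RvD1 group than between the groups. RvD1 replicate 1 was the lowest of the 6 libraries for 23 of the 38 members and the highest for 4, whereas over all genes it was the lowest for 29.5% and the highest for 30.6%. RvD1 replicate 2 was the highest for 16 members and the lowest for 0, against 12.2% and 12.2% of all genes, and vehicle replicate 3 was the highest for 11. The median deviation of the members from their own means, on the log2 CPM scale, was -0.12 in RvD1 replicate 1, 0.08 in RvD1 replicate 2 and 0.06 in vehicle replicate 3. In RvD1 replicate 1 the median deviation was -0.17 for the Celf, -0.16 for the Hnrnp and -0.12 for the Srsf genes, against -0.01 for the Mbnl and 0.06 for the Rbfox genes, while Mbnl2, Srsf5, Srsf11 and Hnrnph1 were highest in that library. The sum of proliferation markers was also lowest in RvD1 replicate 1, and whether the 2 are linked was not tested. Without this library the median log2 fold change of the members was 0.04 in place of -0.019, against 0.001 over all genes.

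**Figure D3:**
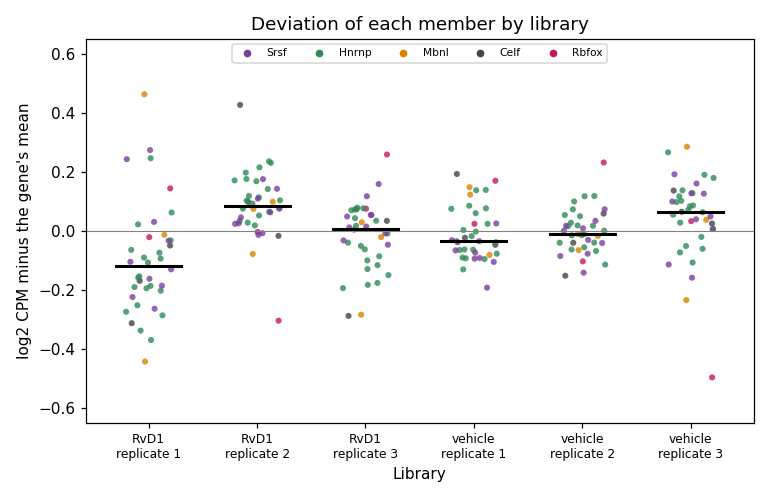
Deviation of log2 CPM from the mean of each gene over the 6 libraries (vertical axis) for the 38 tested members in each library (columns), coloured by family, with black bars at the medians. The members sit lowest in RvD1 replicate 1 (median -0.12) and highest in RvD1 replicate 2 (median 0.08), so the widest gap is between mice of the same group.

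Balances between opposing regulators were compared within each library, where the depth of a library cancels. The log2 ratio of Srsf1 to Hnrnpa1 TPM was -1.03, -1.19 and -1.34 with RvD1 and -1.23, -1.37 and -1.35 with vehicle. The means differed by 0.13, with overlap of the groups (exact permutation test, two-sided, p = 0.2), and by 0.05 when RvD1 replicate 1 was left out or 0.20 when RvD1 replicate 3 was. The log2 ratio of Celf1 to Mbnl1 TPM was -0.48, -0.39 and -0.31 with RvD1 and -0.37, -0.60 and -0.42 with vehicle, and the means differed by 0.07 (p = 0.6 in the same two-sided exact test), with 0.03 without RvD1 replicate 3, 0.11 without RvD1 replicate 1, 0.12 without vehicle replicate 1 and -0.0009 without vehicle replicate 2. With expected counts in place of TPM the differences were 0.07 (exact p = 0.3) and -0.04 (exact p = 0.8), so the direction of the Celf1 to Mbnl1 ratio depended on the unit. With 3 mice against 3 the smallest p that this test allows is 0.1, and these 2 ratios were the only ones compared.

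TPM gave a different picture from counts for several members. On the TPM scale 10 of the 38 tested members had all 3 RvD1 libraries above all 3 vehicle libraries (26.3%), against 8.89% of all genes in that direction and 11.4% in either direction, and 0 members had them all below. These were Srsf5, Srsf7, Srsf10, Hnrnph2, Hnrnph3, Hnrnpll, Mbnl1, Celf1, Celf2 and Rbfox2. The members were not matched to other genes by level or by spread between mice for these shares. The members as a whole were not shifted against other genes, since the median difference of log2(TPM + 1) was 0.080 for the members and 0.077 over all genes. The median over all genes thus lay higher on this scale than in counts, where it was 0.0145, and a member at 0.08 is at the middle of all genes. limma on log2(TPM + 1) gave an unadjusted p under 0.05 for Celf1, Hnrnph3, Mbnl1, Rbfox2 and Srsf5, against 4.49% of all genes, with a smallest adjusted p of 0.896 among the members.

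Among the 10 members separated in TPM, Celf1 differed most between the scales. Celf4, whose libraries overlapped in TPM, differed more, with -0.08 from counts and 0.21 on log2(TPM + 1). The TPM of Celf1 was 135.0, 135.3 and 135.5 with RvD1 and 119, 103 and 118 with vehicle, so that the 3 RvD1 mice were almost equal and all above the vehicle mice. The difference of log2(TPM + 1) was 0.26, while the log2 fold change from counts was 0.0047. Rbfox2 was at 84.2, 78.9 and 86.9 TPM with RvD1 and 73.0, 66.6 and 74.3 TPM with vehicle, a difference of 0.22 against 0.03 from counts. Mbnl3 differed in the other direction, at 7.18, 9.16 and 9.89 TPM against 12.4, 9.81 and 12.1 TPM, a difference of -0.36 against -0.22 from counts.

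**Figure D4:**
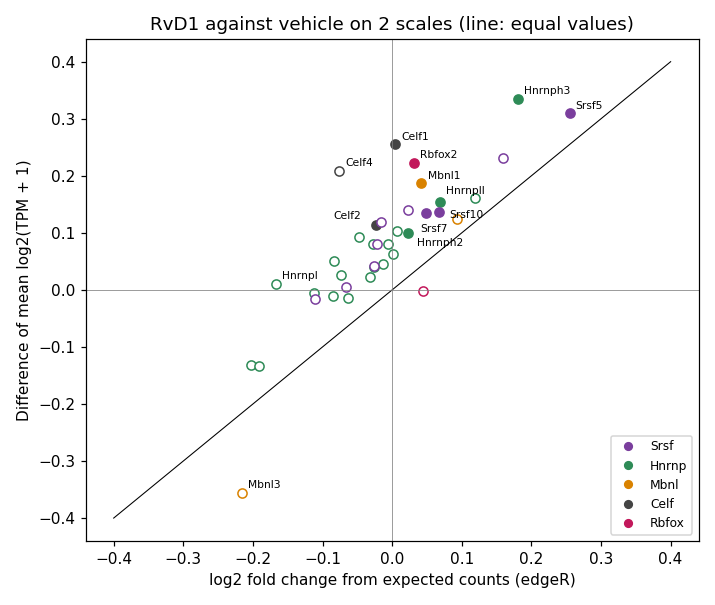
Difference between RvD1 and vehicle for the 38 tested members, with the log2 fold change from expected counts on the horizontal axis and the difference of mean log2(TPM + 1) on the vertical axis; filled points are the 10 members with every RvD1 library above every vehicle library in TPM, and the line marks equal values. Most points lie above the line, Celf1 (0.0047 and 0.26) by the most among the filled points, and Mbnl3 lies below it (-0.22 and -0.36). The medians over all genes (0.0145 and 0.077) also give a point above the line.

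Within a library, a count and a TPM of one gene differ by its transcript length and by a factor shared by all genes. The mean transcript length that the quantification assigned to each gene was therefore read back from the pair. Between the groups the scales also differ in how libraries are scaled (median over all genes 0.0145 in counts and 0.077 in TPM). A gap between them is thus not length alone. RSEM shares the reads of a gene among its annotated isoforms and divides by the mean length of those isoforms, weighted by their estimated abundance. In 570 genes with a single annotated transcript the length read back differed from the annotated one by a median of 0.029%, and 99.8% of these genes were within 1% in all 6 libraries. A change in this implied length reports a change in the isoform mix as estimated by RSEM and does not say which isoform or exon changed. The comparison was made after the difference between the scales had been seen. Implied length could be read for 37 of the 43 members, of which 33 varied between libraries and were tested with limma among 8556 varying genes.

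No implied length differed after adjustment, for any gene or member. The adjusted p was under 0.05 for 0 of 8556 genes, and under an unadjusted p of 0.05 were 6 of the 33 members (18.2%) against 5.93% of all genes. Groups did not overlap for 7 members (21.2%) against 11% of all genes, and these were 1 longer and 6 shorter with RvD1, against 5.17% and 5.83% of all genes. By direction, 20 members were nominally shorter and 13 longer with RvD1, and the median absolute log2 difference was 0.025 in the members and 0.033 over all genes. The count of 6 fell to 2 of 33 without vehicle replicate 1 or without vehicle replicate 2 (6.23% and 5.55% of all genes). For these shares the members were not matched to other genes by level, spread or number of annotated isoforms.

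Mbnl3 had the smallest p of the members. Its implied length was 2439, 2577 and 2418 bases with RvD1 and 2011, 2117 and 2173 bases with vehicle, with every RvD1 library above every vehicle library. The log2 difference was 0.24 ± 0.046 (SE, 95% interval 0.12 to 0.35), with a limma p of 0.0024 and an adjusted p of 0.490. The 7 annotated transcripts of Mbnl3 run from 356 to 4649 bases. Its implied length rests on 221 to 401 expected counts per library, shared among these transcripts. Leaving out each library in turn gave log2 differences of 0.21 to 0.26, each with an unadjusted p under 0.05.

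Rbfox2, Celf1, Celf2 and Celf4 had shorter implied lengths in all RvD1 libraries, none with an adjusted p under 0.05. Rbfox2 was at 2228, 2271 and 2271 bases with RvD1 and 2514, 2412 and 2369 bases with vehicle, with the RvD1 libraries all below. The log2 difference was -0.11 ± 0.026 (SE), with a limma adjusted p of 0.625, and the unadjusted p of 0.0077 stayed under 0.05 without each library in turn by limma. Celf1 was at 3985, 4509 and 4613 bases against 4740, 5174 and 4828 bases, again with all RvD1 libraries below and with RvD1 replicate 1 the lowest (log2 difference -0.17 ± 0.065 SE, limma adjusted p = 0.829). The Celf1 difference was -0.11 without RvD1 replicate 1, and of the 6 fits that left out a library the one without RvD1 replicate 3 kept its unadjusted p under 0.05. Celf2 was at 2727, 2797 and 2782 bases against 2892, 2894 and 2831 bases (log2 difference -0.05 ± 0.016 SE, limma adjusted p = 0.723), without overlap, and its unadjusted p rose above 0.05 without vehicle replicate 1 or 2. Celf4 was at 1503, 1924 and 2033 bases against 2045, 2178 and 2257 bases, without overlap. Its limma p was 0.086 and its adjusted p 0.842, and RvD1 replicate 1 was the lowest.

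Among the hnRNP genes, Hnrnpf and Hnrnph3, which belong to one subfamily, were shorter in all RvD1 libraries. Hnrnpf was at 1948, 1955 and 1962 bases with RvD1 and 2006, 1995 and 1978 bases with vehicle, a small difference (log2 difference -0.03 ± 0.0094 SE, limma adjusted p = 0.774) whose unadjusted p rose above 0.05 without RvD1 replicate 2 or vehicle replicate 1 or 2. Hnrnph3 was at 1559, 1477 and 1579 bases against 1608, 1618 and 1640 bases (-0.08 ± 0.032 SE, adjusted p = 0.833). Hnrnpl had an unadjusted p under 0.05 but its groups overlapped, at 1564, 1570 and 1703 bases against 1692, 1730 and 1737 bases. No SR gene separated by group in implied length. Srsf5, the member with the smallest p in counts, was at 1611, 1604 and 1636 bases against 1593, 1565 and 1623 bases, so its TPM and its counts gave the same direction.

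**Figure D5:**
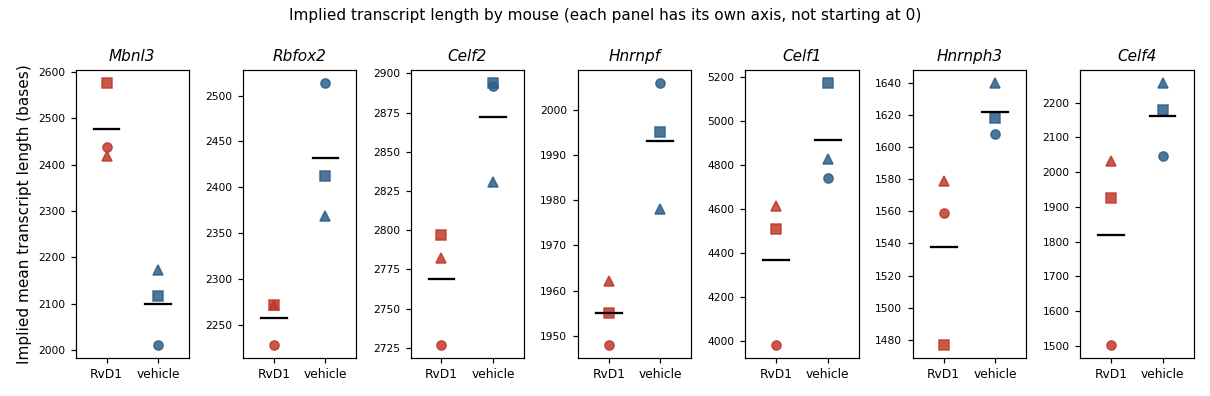
Mean transcript length implied by the expected count and TPM (vertical axes, in bases, each panel on its own axis) in each RvD1 (red) and vehicle (blue) library for the 7 members whose groups did not overlap, with black bars at the group means and circles, squares and triangles for replicates 1, 2 and 3. Mbnl3 is longer with RvD1 (2418 to 2577 against 2011 to 2173 bases) and the other 6 are shorter, none with an adjusted p under 0.05.

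The members are rich in annotated isoforms. In GENCODE M21, 21 of the 38 tested members (55.3%) have at least 1 transcript annotated for NMD, against 28.2% of 12791 tested protein-coding genes, and 9 of the 10 tested Srsf genes (90%) have one. The members have a median of 9.5 annotated transcripts against 5 over those genes. The annotation lists 15 transcripts for Rbfox2 and 14 for Celf1, from 417 to 6907 and from 271 to 7851 bases, and none of the transcripts of Mbnl3, Rbfox2 or Celf1 is annotated for NMD.

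Several members have near-identical copies in the genome, which limits how surely 76-base reads can be assigned to them. Of the distinct 76-base stretches of their transcripts, 55.7% in Hnrnpf, 27.0% in Hnrnpa1 and 26.1% in Hnrnpa3 also occur in another gene, mostly processed pseudogenes. The copies of Hnrnpf held counts equal to 0.23% of those of the parent gene and those of Hnrnpa1 4.31%, but the 17 copies of Hnrnpa3 held 35.8%. The following read-length stretch of Hnrnpa3, at chr2:75661914-75661989 on the plus strand of GRCm38, is shown because it occurs letter for letter in 18 other genes, so that a read from it cannot be placed.
Hnrnpa3: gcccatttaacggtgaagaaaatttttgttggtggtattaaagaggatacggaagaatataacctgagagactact
Adding the counts of the copies to the parent genes left 0 members called and Srsf5 as the member with an unadjusted p under 0.05. The log2 fold change of Hnrnpa3, one of the members below vehicle with the smallest p, went from -0.19 to -0.03 (edgeR adjusted p = 0.992). Of a mean of 1107 counts in its copies, 1093 were in Gm5641, annotated as a transcribed processed pseudogene. Whether those reads came from Hnrnpa3 or from Gm5641 was not tested. The library preparation did not mark strand. Reads from the stretches that Srsf4, Hnrnpab and Srsf2 share with genes on the other strand therefore cannot be told apart from reads of those genes. They are Gm12992 (37.7% of the stretches of Srsf4), Phykpl (20.8% of those of Hnrnpab), and Mettl23 and Mfsd11 (together 18.4% of those of Srsf2).

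Other genes of the splicing pathway were counted for comparison from fixed lists. Of 98 listed genes 90 were tested, and 36 were nominally above and 54 below vehicle, where 53.5% of all genes were above. By edgeR 0 of the 90 had an unadjusted p under 0.05, against 3.47% of all genes. By adjusted p 0 were called, as over all genes. For the medians below, the median log2 fold change over all genes was 0.0145. The lists were not matched to other genes by level. Core snRNP and U2AF proteins, which form the spliceosome itself, were above in 12 and below in 23 of 35, with a median log2 fold change of -0.08. The kinases and the importer of SR proteins were above in 6 of 9 (median 0.06), the SR-related proteins in 7 of 14 (median -0.002), the other hnRNP proteins in 4 of 14 (median -0.05) and the other tissue-linked regulators in 7 of 18 (median -0.04). Ptbp1, the repressor of neuronal and muscle exons, was at 254, 292 and 258 CPM with RvD1 and 286, 267 and 259 CPM with vehicle, with overlap. Clk1, a kinase of SR proteins, was at 258, 171 and 146 CPM against 198, 175 and 165 CPM, with the highest value in RvD1 replicate 1. Srpk3, a muscle-specific SR protein kinase, was at 13.8, 8.74 and 21.5 CPM against 8.30, 16.9 and 11.3 CPM, a wide spread within each group. Tra2b, Qk and Rbm24, regulators of muscle exons, also overlapped between groups, with log2 fold changes of -0.11, 0.07 and 0.08.

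Markers of other cells that the sort could hold moved with the groups in part. Of 18 leukocyte markers 14 had a lower mean with RvD1 and 3 a higher one, and their summed TPM was 53.1 to 80.5 with RvD1 and 70.9 to 119 with vehicle. Of 12 fibroblast markers 10 had a higher mean with RvD1, and of 8 pericyte and smooth muscle markers 7 did, with sums of 310 to 630 TPM against 338 to 441 TPM. Of 12 endothelial markers 5 were higher and 7 lower, and their sums of 19.4 to 27.0 TPM with RvD1 lay within the 11.9 to 35.3 TPM of vehicle. All 10 differentiating myocyte markers found in the table had a higher mean with RvD1, with overlapping sums of 1898 to 3336 TPM and 2041 to 2475 TPM, and 8 of 9 MuSC markers did, with sums of 2153 to 2350 TPM and 2007 to 2213 TPM. All 8 Schwann and neural markers had a higher mean with RvD1. Their sums of 150.6 to 209.1 TPM with RvD1 did not overlap the 141.6 to 149.6 TPM of vehicle. Of 10 proliferation markers 7 had a lower mean with RvD1 and 3 a higher one, with overlapping sums of 1645 to 2339 TPM and 2080 to 2243 TPM. Over all genes the median difference of log2(TPM + 1) was 0.077, with RvD1 above vehicle. No marker was at 0 in every library. The part of these cells in the levels of the splicing regulators was not tested.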

How the data were processed

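RNA from sorted MuSCs of 3 RvD1-treated and 3 vehicle-treated mice was amplified with SMART-Seq v4 and sequenced as 76-base single-ended reads. Per the labels and the study's methods, the authors aligned reads to mm10 with STAR 2.5.0a and deposited expected counts, TPM and FPKM per gene from RSEM. The annotation release is not given in the sources used here. Expected counts were rounded, genes were filtered with edgeR's filterByExpr, scaled by TMM and tested with edgeR 4.0.16 (quasi-likelihood) over all genes, with Benjamini-Hochberg adjustment. CPM values are TMM-normalised. The study's own approach, limma-voom (limma 3.58.1) with a surrogate variable from sva 3.50.0 removed, was an alternative, as was DESeq2 1.42.0, TPM with limma, and leaving out each library. Implied transcript length is the length that links a gene's expected count to its TPM or FPKM within a library (at least 50 counts and 1 TPM in every library), tested with limma on log2 length. Members of the families were named by a fixed rule: well-studied members, the most abundant and the most changed of each family, those with the smallest p, and those too low to test. Members with separated TPM or implied length were named after their values were seen. The members and lists were chosen with earlier results of these data known. Depth of 16148026 to 28149176 counts makes counting error small for all but the lowest members. Scripts were tested on simulated data. In the edgeR test 173 of 200 genes changed 4-fold were recovered, with 16 false calls over 14494 genes. Smaller changes in counts, such as those of the members, were not simulated. Copies were found by matching 76-base stretches of GENCODE M21 transcripts, and promoters come from RefSeq (GRCm38.p6), with 39 of 43 members matched. Mice were separate animals, so p-values measure the spread between mice.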

Additional observations from a re-analysis of the deposited data

How the results depend on the processing

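No member was called under any alternative run. Over all genes 12 were called when every gene with at least 1 count was kept and 0 to 1 when a library was left out. Members with an unadjusted p under 0.05 numbered 2 of 38 with scaling by library totals alone (3.72% of all genes), 5 of 43 after removal of a surrogate variable with limma-voom (11.2%), 5 of 38 with limma on log2(TPM + 1) (4.49%) and on log2(TPM + 0.1) (4.42%), and 0 to 4 of 38 when a library was left out (1.9% to 6.83%, the highest of both without RvD1 replicate 2). The median log2 fold change of the members was 0.0803 on log2(TPM + 1) and 0.0805 on log2(TPM + 0.1). Members whose groups did not overlap numbered 4 with RLE factors (9.61% of all genes), 4 with library totals (10.1%), 10 in TPM (11.4%), 7 in FPKM (10.1%) and 3 to 12 with a library left out, where 3 against 2 libraries separate more easily (15.2% to 23.3% of all genes). Members with an unadjusted p for implied length numbered 2 to 8 with a library left out, the lowest without vehicle replicate 1 or 2 (6.23% and 5.55% of all genes) and the highest without RvD1 replicate 3 (8.54%).

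Small fold changes changed sign. Celf1 was -0.0005 with DESeq2 and with RLE factors, and Hnrnpa2b1 -0.0039 with both, -0.0023 with every gene kept and -0.0014 with limma-voom without a surrogate variable. Celf2, Hnrnpu, Srsf1 and Srsf2 became 0.012, 0.028, 0.0163 and 0.0087 with library totals, 0.01, 0.0522, 0.0647 and 0.0397 with the surrogate variable removed (Celf4 0.0131), 0.1132, 0.0806, 0.1182 and 0.042 on log2(TPM + 1), and 0.1138, 0.0807, 0.1185 and 0.0421 on log2(TPM + 0.1). On those last 2 scales Celf4 was 0.2084 and 0.2313, Hnrnpk 0.0919 on both, Hnrnpl 0.0103 on both and Rbfox1 -0.0019 and -0.0112. With a library left out, Celf1 ran from -0.0451 to 0.0855, Celf4 from -0.3681 to 0.0575, Hnrnpa1 from -0.1674 to 0.0477, Hnrnpa2b1 from -0.089 to 0.0547, Hnrnpu from -0.0609 to 0.0683, Mbnl2 from -0.1519 to 0.2401, Rbfox1 from -0.1552 to 0.1984, Rbfox2 from -0.0128 to 0.0562, Srsf1 from -0.114 to 0.0999 and Srsf2 from -0.0894 to 0.0465. The log2 ratio of Celf1 to Mbnl1 was -0.0413 from counts and ran from -0.0009 (without vehicle replicate 2) to 0.1184 with a library left out. The cause of these changes was not tested.

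Whether replicate numbers pair the mice could not be settled. Deviations of same-numbered mice correlated at 0.31, -0.0007 and 0.13 for replicates 1 to 3. RvD1 replicates 1 and 3 correlated best with the same-numbered vehicle mouse, and RvD1 replicate 2 with vehicle replicate 3 (0.17). With the replicate number as a block, edgeR called 0 genes (896, or 6.18% of all genes, at an unadjusted p under 0.05 in place of 503). Srsf5 was again the member under that level, Hnrnpa2b1 was -0.0024 and the median of the members was -0.0223. For implied length with this block, 6 of 33 members had a limma p under 0.05, against 6.17% of all genes. Celf4 took the place of Hnrnpf among these 6. The paired differences of the ratios gave exact p-values of 0.25 and 0.75.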
